A study of Mus musculus with 8 samples.

Results

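The 35 genes described here are the sarcomere and muscle energy genes of skeletal muscle, measured in BNP-injected mouse cheek skin. They were chosen by gene symbol, from their known role in muscle, but with earlier results of these data known. All 35 were found among the 18901 genes of the deposited table. Whole cheek skin was sequenced, 1 library a mouse, from 2 genotypes with 4 animals each, TBX20fl/fl;K14-Cre and TBX20fl/fl. Both genotypes carry 2 floxed Tbx20 alleles, and the groups differ by the K14-Cre transgene, in which the keratin 14 promoter drives Cre recombinase in basal keratinocytes. All 8 mice, aged 7 weeks, were injected in the cheek with 10 µg of BNP (brain natriuretic peptide, an itch-inducing peptide) and were killed 5 h after a 30 min recording of scratching. The samples are labelled skin, with no muscle label, and the layers included are not given in the sources used here. The mice are called cKO mice 1 to 4 (TBX20fl/fl;K14-Cre) and control mice 1 to 4 (TBX20fl/fl) below, with the replicate numbers of the labels.

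Skeletal muscle contracts when thick filaments of myosin pull on thin filaments of actin within the sarcomere, the repeating unit between neighbouring Z-discs. Calcium released from the sarcoplasmic reticulum binds troponin and so exposes the actin sites on which myosin acts, while creatine kinase and the enzymes of glycogen breakdown and glycolysis supply ATP. Mouse skin lies over the panniculus carnosus, a thin sheet of striated muscle, and cheek tissue is close to the facial muscles.

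Total deposited counts ran from 19260856 to 19880654 in cKO mice and 16056282 to 19617762 in control mice. Tbx20, the targeted gene, had 2, 1, 0 and 1 counts in cKO mice 1 to 4 and 2, 1, 0 and 3 counts in control mice 1 to 4, so its deletion in keratinocytes was not detectable at this depth and the genotype labels could not be checked with it. Control mouse 2 stood apart from the other 7 mice. Its TMM factor, by which edgeR scales a library, was 0.735, against 1.01 to 1.07 in the others. Its levels of the muscle genes fell steeply with transcript length, as described below. Values that this mouse moved most are therefore given with and without it. In edgeR's quasi-likelihood test over 17124 genes, 0 genes (0%) had a Benjamini-Hochberg adjusted p under 0.05 (smallest 0.498), 1431 genes (8.36%) had an unadjusted p under 0.05, and DESeq2 called 10 of 16410 genes (0.0609%).

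RNA of the muscle genes was present in every library. The 35 genes took 3.35, 1.99, 2.56 and 2.87% of all counts in cKO mice 1 to 4 and 2.70, 3.27, 2.62 and 2.97% in control mice 1 to 4. The shares overlapped between genotypes, with a mean of 2.69 ± 0.569% (SD, n = 4) in cKO mice and 2.89 ± 0.295% (SD, n = 4) in control mice. In whole skin, fewer muscle cells and less RNA per muscle cell cannot be told apart. On the FPKM scale, which divides by transcript length and by depth, 8 of the 35 genes had a mean of at least 1000 over the 8 mice, 24 had at least 100 and 4 had under 10. Ranked by mean FPKM over all genes, Acta1 was number 5, Mylpf number 7, Tnnt3 number 13 and Myl1 number 15.

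**Figure D1:**
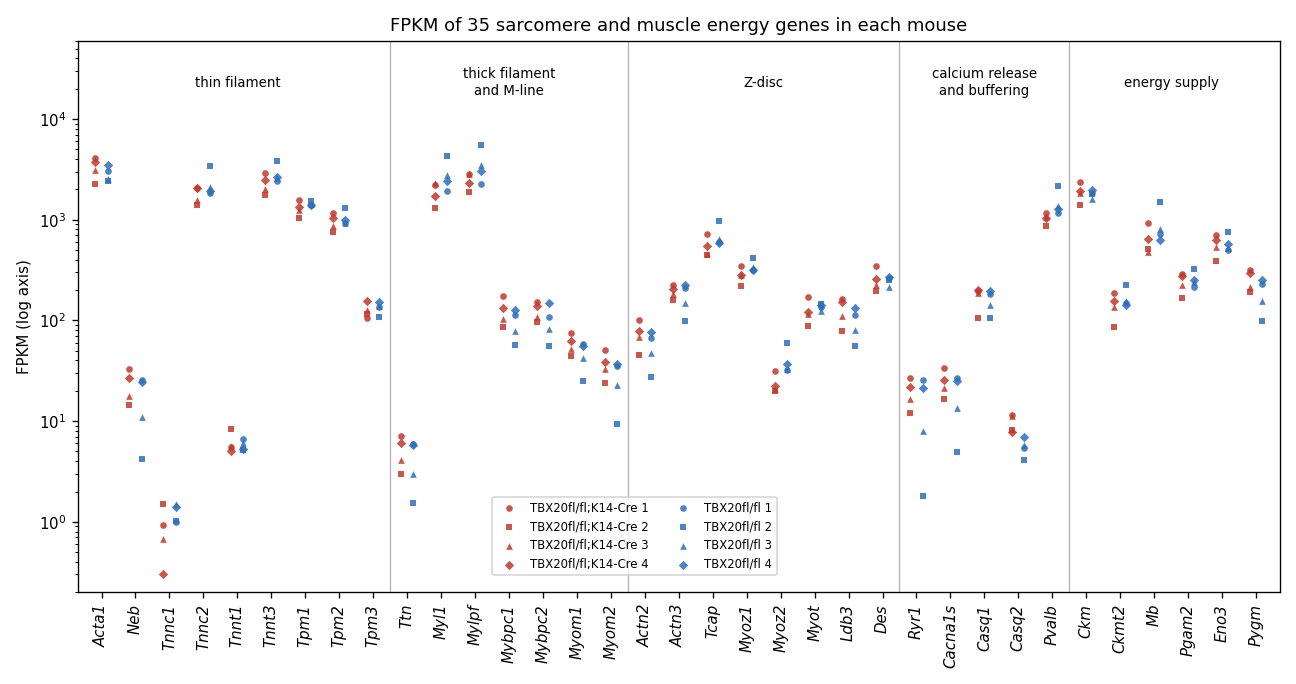
Each point is the FPKM of 1 gene in 1 mouse, on a log axis, with genes grouped by role along the other axis, cKO mice in red and control mice in blue, and 1 symbol for each replicate number. The red and blue points overlap for 32 of the 35 genes, and control mouse 2 (blue squares) lies at the top for short transcripts such as Mylpf and at the bottom for long ones such as Ryr1.

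Fast forms of troponin and of the myosin heavy chain exceeded the slow forms in every mouse. Tnnt3, the fast skeletal form of troponin T, which ties troponin to tropomyosin, exceeded its slow form Tnnt1 by 213 to 738 times in FPKM across the 8 mice. Tnnc2, the calcium-binding troponin C of fast muscle, exceeded Tnnc1, the form of slow and cardiac muscle, by 931 to 6856 times. Among the myosin heavy chains, the motors of the thick filament, the fast forms Myh4 (107 to 554 FPKM) and Myh1 (58.5 to 344 FPKM) were highest, followed by the fast form Myh2 (6.36 to 32.6 FPKM). The slow form Myh7 was at 0.81 to 2.39 FPKM, the perinatal form Myh8 at 0.21 to 1.18 FPKM and the embryonic form Myh3 at 0 to 0.23 FPKM. The cardiac markers Myh6 (1.13 to 2.42 FPKM) and Myl7 (0 to 0.38 FPKM) were low, and the summed FPKM of 6 cardiac genes was 12.9 to 22.0 in cKO mice and 14.5 to 23.9 in control mice.

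The promoter sequences of the most abundant actin and creatine kinase genes, and of the genes whose levels did not overlap between genotypes, are shown because muscle genes are known to share short control motifs and because TBX20 belongs to the T-box factors, for which the study searched the letters AGGTGTG. Windows run from 250 bases before to 50 bases after a transcription start, on GRCm38.p6 of RefSeq, 5′ to 3′ on the gene's strand. On GRCm38 the 35 genes lie on 15 chromosomes, with at most 6 on 1 of them (chromosome 7), and Casq2 spans chr3:102086415-102146514, Myoz2 chr3:123006206-123035003 and Pvalb chr15:78191112-78206400. A window was found for 28 of the 35 genes, and Neb, Tnnt3, Myom2, Actn3, Tcap, Myoz1 and Myot had none. Capitals mark CAGCTG, which is a form of the E-box bound by muscle regulatory factors, the MCAT box with the letters CATTCC, the TATA box searched as TATAAA, the T-box letters named above, the MEF2 consensus and the CArG box, each searched on both strands. CAGCTG reads the same on both strands, and TATAAA can overlap the MEF2 consensus. The windows lie at chr8:123894726-123895025 for Acta1 (minus strand), chr7:19410844-19411143 for Ckm (plus strand), chr3:102086165-102086464 for Casq2 (plus strand), chr3:123034938-123035237 for Myoz2 (minus strand) and chr15:78206351-78206650 for the second of the Pvalb starts (minus strand).
Acta1: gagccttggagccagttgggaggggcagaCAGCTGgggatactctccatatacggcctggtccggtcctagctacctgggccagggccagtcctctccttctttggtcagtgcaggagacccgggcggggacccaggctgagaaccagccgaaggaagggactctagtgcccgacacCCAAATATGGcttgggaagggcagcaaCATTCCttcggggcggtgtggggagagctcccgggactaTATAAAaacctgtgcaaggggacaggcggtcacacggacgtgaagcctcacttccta
Ckm: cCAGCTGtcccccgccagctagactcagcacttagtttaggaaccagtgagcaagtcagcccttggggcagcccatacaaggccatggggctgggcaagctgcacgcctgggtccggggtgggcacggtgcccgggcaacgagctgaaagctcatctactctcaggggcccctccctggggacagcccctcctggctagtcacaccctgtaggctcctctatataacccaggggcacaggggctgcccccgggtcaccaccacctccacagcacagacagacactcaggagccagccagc
Casq2: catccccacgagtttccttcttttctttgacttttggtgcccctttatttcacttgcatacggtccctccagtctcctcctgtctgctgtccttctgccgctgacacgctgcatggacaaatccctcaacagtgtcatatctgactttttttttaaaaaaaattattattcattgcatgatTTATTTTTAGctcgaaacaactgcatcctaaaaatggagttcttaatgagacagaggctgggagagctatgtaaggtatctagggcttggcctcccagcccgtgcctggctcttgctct
Myoz2: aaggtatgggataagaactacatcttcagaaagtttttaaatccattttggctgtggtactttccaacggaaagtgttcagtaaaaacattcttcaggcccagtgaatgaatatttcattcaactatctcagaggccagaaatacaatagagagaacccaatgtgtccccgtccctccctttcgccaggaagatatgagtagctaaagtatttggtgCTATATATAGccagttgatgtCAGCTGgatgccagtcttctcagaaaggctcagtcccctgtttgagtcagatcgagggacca
Pvalb: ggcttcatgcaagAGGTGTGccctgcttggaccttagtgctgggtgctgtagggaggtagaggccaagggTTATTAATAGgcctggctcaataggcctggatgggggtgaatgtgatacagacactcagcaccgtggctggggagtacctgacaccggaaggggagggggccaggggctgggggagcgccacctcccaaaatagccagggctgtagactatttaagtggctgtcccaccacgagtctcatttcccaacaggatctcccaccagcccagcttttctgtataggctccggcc

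CAGCTG was found in the windows of 16 of the 28 genes (57.1%), against 18.3% of 27025 genes with a window. The MEF2 consensus was found for 5 genes (17.9%, against 3.70%), namely Casq2, Myoz2, Pgam2, Pvalb and Ttn. CATTCC was found for 9 genes (32.1%, against 16.6%) and the CArG box for 3 genes (10.7%, against 1.81%). Acta1 holds 4 of the 6 motifs, the Ckm window holds CAGCTG alone, and Casq2 holds the MEF2 consensus alone. TATAAA was found for 3 genes (10.7%, against 15.7%). AGGTGTG was found in the window of Pvalb and of no other of the 28 genes (3.57%, against 6.72% of all genes with a window). Pvalb has another window, at chr15:78204188-78204487, which holds none of the 6 motifs. A match is a run of letters and not a measured binding site.

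Of the 35 muscle genes, 0 had an adjusted p under 0.05 between genotypes (lowest 0.498, edgeR with Benjamini-Hochberg adjustment). DESeq2's Wald test also called 0 of them (lowest adjusted p = 0.164). The fitted log2 fold change (cKO minus control) was above 0 for 14 genes and below 0 for 21, with a median of −0.14, against 0.03 over all genes tested. An unadjusted p under 0.05 was found for 4 genes (11.4%), against 8.36% of all genes. Of these, Casq2 was the 1 with the higher value in cKO mice (against 2.45% of all genes in that direction), and Myl1, Myoz2 and Pvalb were the 3 with lower values (against 5.91%). By FPKM, the 2 groups of mice did not overlap for 3 genes (8.57%), against 7.05% of all genes. Casq2 was higher in every cKO mouse than in any control mouse (5.19% of all genes were), and Myoz2 and Pvalb were lower in every cKO mouse (1.87% of all genes were). The replicate number was also used as a block, a pairing that no label states. With it, 4 genes again had an unadjusted p under 0.05 (10.1% of all genes), but not the same 4. Casq2 and Myoz2 remained, Myl1 and Pvalb did not, and Myom2 (log2 fold change 0.45 ± 0.17, SE) and Neb (0.58 ± 0.22, SE) entered, so that 3 were higher (against 3.52% of all genes) and 1 lower (against 6.54%). The adjusted p of these 4 genes in the blocked edgeR fit was 0.405. With the block and the transcript length trend of each mouse together, Myom2 was at 0.16 and Neb at −0.21, neither with an unadjusted p under 0.05. Between mice of the same number, FPKM was higher in the cKO mouse in 4 of 4 pairs for 11 genes (31.4%, against 21.2% of all genes) and lower in 4 of 4 pairs for 2 genes (5.71%, against 9.73%). The 11 genes were all longer than 1556 bases, the median of the 35 genes, and the 2 genes were shorter. Levels of the 35 genes fell with transcript length in control mice 2 and 3, and the part of length in these tallies was not tested.

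**Figure D2:**
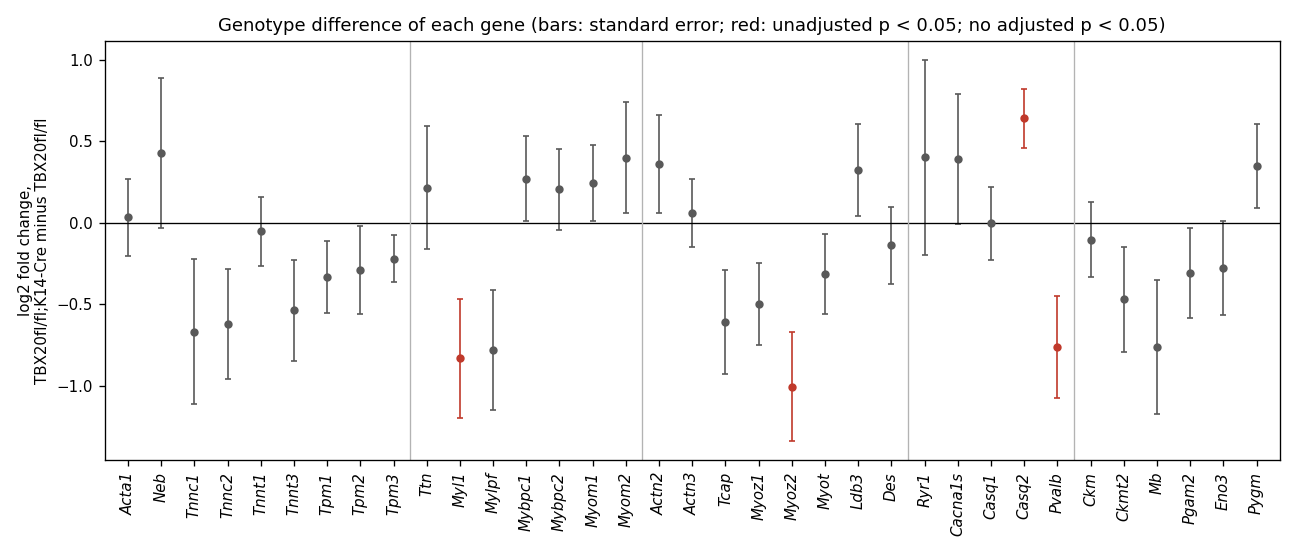
Log2 fold change of each of the 35 genes (cKO minus control, edgeR on counts), with bars of 1 standard error, genes grouped by role and grey lines between the roles. Red points have an unadjusted p under 0.05 and none has an adjusted p under 0.05, with values from −1.01 for Myoz2 to 0.64 for Casq2.

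The thin filament is a strand of actin with tropomyosin along it and troponin on top, and 9 of its genes were measured. None of the 9 had an unadjusted p under 0.05, and the fitted values were above 0 for 2 and below 0 for 7 (median −0.29 on the log2 scale, or 3 and 6 with a median of −0.15 without control mouse 2). Acta1, the skeletal alpha-actin, stood at 4086, 2261, 3123 and 3735 FPKM in cKO mice 1 to 4 and at 3072, 2445, 2547 and 3527 FPKM in control mice 1 to 4. The highest mouse was cKO mouse 1 and the lowest was cKO mouse 2, so the control mice lay within the range of the cKO mice. The log2 fold change of Acta1 was 0.03 ± 0.24 (SE, adjusted p = 0.947, edgeR).

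The fast troponin genes were highest in control mouse 2. Tnnt3 was at 2935, 1776, 2034 and 2459 FPKM in cKO mice and at 2407, 3837, 2575 and 2644 FPKM in control mice. Tnnc2 was at 2080.3, 1405, 1555 and 2057 FPKM in cKO mice and at 1849, 3391, 2092 and 1914 FPKM in control mice. For both genes control mouse 2 was the highest mouse and cKO mouse 2 the lowest, and the groups overlapped. The fitted log2 fold changes were −0.54 ± 0.31 for Tnnt3 and −0.62 ± 0.34 for Tnnc2 (SE), and without control mouse 2 they were −0.19 and −0.18. Of the 50-base stretches of Tnnc2 transcripts, 47.9% also occur in transcripts of the overlapping gene Ube2c, so its counts depend on how reads were divided. The slow forms were low in every mouse, with Tnnt1 at 5.08 to 8.34 FPKM and Tnnc1 at 0.30 to 1.51 FPKM. Tnnc1 was at 0.93, 1.51, 0.68 and 0.30 FPKM in cKO mice and 0.99, 1.02, 1.49 and 1.40 FPKM in control mice, which overlap (log2 fold change −0.67 ± 0.45, SE). These levels rest on 4 to 20 counts a mouse, and the value was −1.08 without cKO mouse 2, −0.38 without cKO mouse 4 and −0.24 with the length trend removed.

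Tropomyosin, which covers the myosin-binding sites of actin at rest, is encoded by Tpm1, Tpm2 and Tpm3. Tpm1 was at 1034 to 1571 FPKM in cKO mice and 1385 to 1545 FPKM in control mice, and Tpm2 at 748 to 1174 and 923 to 1297 FPKM. Tpm3, whose products include slow-muscle and non-muscle forms, was at 106 to 155 FPKM in cKO mice and 107 to 151 FPKM in control mice. The groups overlapped for all 3 genes, with log2 fold changes of −0.33, −0.29 and −0.22, which were −0.15, −0.02 and −0.21 without control mouse 2. Tpm3 had the smallest range of the 35 genes, 1.46-fold between its highest and lowest mouse. Neb encodes nebulin, the long ruler protein of the thin filament, and was at 32.8, 14.5, 17.9 and 27.0 FPKM in cKO mice and 25.5, 4.16, 11.0 and 24.6 FPKM in control mice. Control mouse 2 was the lowest mouse for Neb, the opposite of Tnnt3 and Tnnc2, and the log2 fold change of 0.43 ± 0.46 (SE) was 0.14 without it. With the transcript length trend of each mouse removed, the value of Neb was −0.19.

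Myosin light chains stiffen the lever arm of myosin, myosin-binding protein C tunes its action, titin spans from Z-disc to M-line as a spring, and the myomesins cross-link thick filaments at the M-line. Of these 7 genes, 5 had fitted values above 0 and 2 below 0 (median 0.22), and both below 0 were light chains. Without control mouse 2 the counts were 4 and 3 and the median 0.08. Myl1, the alkali light chain of fast muscle, was at 2206, 1314, 2312 and 1713 FPKM in cKO mice and at 1940.3, 4247, 2761 and 2441 FPKM in control mice. Control mouse 2 was the highest and cKO mouse 2 the lowest, and control mouse 1 lay inside the cKO range, so the groups overlapped. The log2 fold change of Myl1 was −0.83 ± 0.37 (SE), with an edgeR unadjusted p of 0.0479 and an adjusted p of 0.498. It was −0.38 without control mouse 2 and −0.22 with the transcript length trend of each mouse removed. With the replicate block it was −0.71 ± 0.40 (SE, unadjusted p = 0.126, edgeR). Mylpf, the regulatory light chain of fast muscle, followed the same order at its extremes, from 1890.1 FPKM in cKO mouse 2 to 5465 FPKM in control mouse 2 (log2 fold change −0.78 ± 0.37, SE, and −0.30 without control mouse 2).

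The long genes of this group had control mouse 2 as their lowest mouse. Ttn, encoding titin, was at 7.10, 3.01, 4.07 and 6.08 FPKM in cKO mice and 5.95, 1.55, 3.01 and 5.85 FPKM in control mice (log2 fold change 0.22 ± 0.38, SE). Myom2 was at 50.5, 24.0, 32.7 and 39.0 FPKM in cKO mice and 35.4, 9.43, 22.7 and 36.8 FPKM in control mice (0.40 ± 0.34, SE). The groups overlapped for both genes, and cKO mouse 1 was the highest mouse for both. Myom1, Mybpc1 and Mybpc2 had log2 fold changes of 0.24, 0.27 and 0.20, each with overlapping groups. Without control mouse 2, the values of Myom1, Mybpc1, Mybpc2 and Myom2 were 0.12, 0.18, 0.08 and 0.17, while that of Ttn was −0.01. With the transcript length trend of each mouse removed, Ttn was at −1.07 ± 0.46 (SE). In that edgeR fit its unadjusted p was under 0.05 and its adjusted p 0.530. Without cKO mouse 1, the values of Myom1, Mybpc1, Mybpc2 and Myom2 were 0.08, 0.05, 0.08 and 0.18. The slow and fast forms of myosin-binding protein C, Mybpc1 and Mybpc2, stood close to 1:1 in FPKM, with Mybpc1 at 85.6 to 115% of Mybpc2 across the 8 mice and a genotype difference of 0.02 in the mean log2 ratio.

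The Z-disc anchors thin filaments through alpha-actinin, and telethonin, the myozenins, myotilin, LDB3 and desmin hold it together and tie it to its surroundings. Of these 8 genes, 3 had fitted values above 0 and 5 below 0 (median −0.23), or 2 and 6 with a median of −0.09 without control mouse 2. Myoz2, encoding the myozenin of slow and cardiac muscle, was at 31.5, 20.0, 20.9 and 22.5 FPKM in cKO mice and at 32.0, 60.0, 33.1 and 36.9 FPKM in control mice. All 4 cKO mice lay below all 4 control mice, but cKO mouse 1 at 31.5 and control mouse 1 at 32.0 FPKM were nearly level. The means were 23.7 ± 5.30 and 40.5 ± 13.2 FPKM (SD, n = 4 each). The log2 fold change was −1.01 ± 0.33 (SE), with an edgeR unadjusted p of 0.0139 and an adjusted p of 0.498. The exact permutation test on FPKM gave its smallest possible p of 0.0286, which was 0.405 after Benjamini-Hochberg adjustment over all 17124 genes. Without control mouse 2 the log2 fold change was −0.56, and with the transcript length trend of each mouse removed it was −0.52.

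Myoz1, the form of fast muscle, was higher than Myoz2 in every mouse, at 218 to 348 FPKM in cKO mice and 315 to 415 FPKM in control mice (log2 fold change −0.50 ± 0.25, SE, and −0.24 without control mouse 2). Myoz2 was at 9.05, 9.16, 7.34 and 8.06% of Myoz1 in cKO mice 1 to 4 and at 10.2, 14.5, 9.71 and 11.6% in control mice 1 to 4. These ratios did not overlap between genotypes, with cKO mouse 2 at 9.16% and control mouse 3 at 9.71% as the nearest. The mean log2 ratio differed by −0.44, which ranged from −0.52 to −0.32 when each mouse in turn was left out. Myoz2 alone already did not overlap, the other pairs of related genes compared did, and no share over all gene pairs was computed. Both transcripts (1115 bases for Myoz2, 1245 for Myoz1) are shorter than 1556 bases, the median length of the 35 genes. Neither shares a 50-base stretch with another gene. With the transcript length trend of each mouse removed, the log2 fold changes of Myoz2 and Myoz1 were −0.52 and −0.11. The part of transcript length in the ratio was not tested.

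Tcap, encoding telethonin, was at 715, 449, 452 and 543 FPKM in cKO mice and 595, 980.2, 647 and 589 FPKM in control mice. Control mouse 2 was far above the other mice, and cKO mouse 1 lay above the other 3 control mice, so the groups overlapped (log2 fold change −0.61 ± 0.32, SE, and −0.22 without control mouse 2). Actn2 and Actn3 encode the alpha-actinins of muscle, the second mainly in fast fibres. Actn3 was at 159 to 226 FPKM in cKO mice and 99.7 to 223 FPKM in control mice, and Actn2 at 45.8 to 101 and 27.2 to 76.2 FPKM. Actn2 stood at 27.3 to 44.9% of Actn3 across the 8 mice, with overlapping groups. The log2 fold changes of Actn2 and Actn3 were 0.36 and 0.06, and 0.18 and −0.05 without control mouse 2. Myot, Ldb3 and Des had log2 fold changes of −0.31, 0.32 and −0.14, each with overlapping groups, and −0.14, 0.20 and −0.0058 without control mouse 2.

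**Figure D3:**
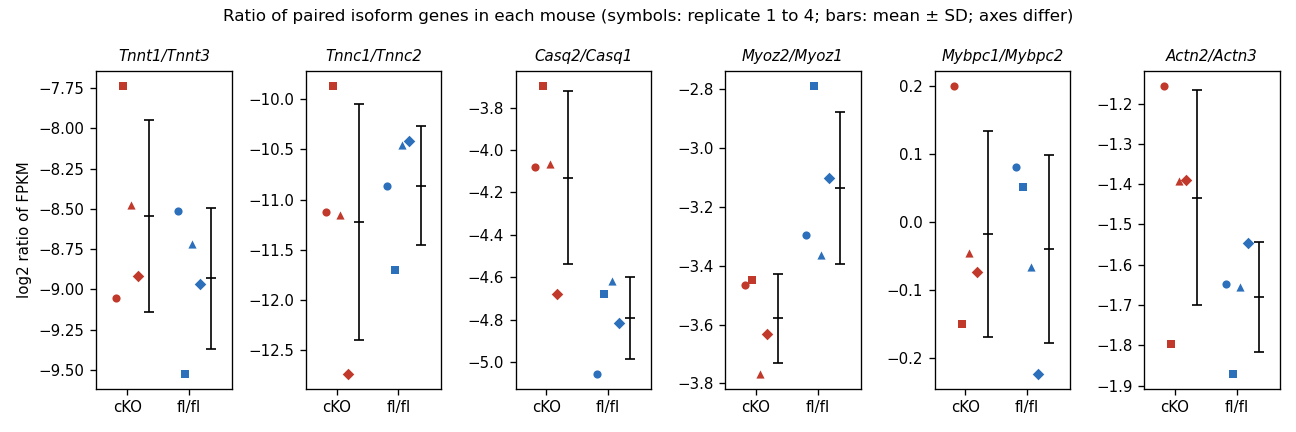
Log2 ratio of FPKM for 6 pairs of related genes in each mouse, cKO mice in red and control mice in blue, with 1 symbol for each replicate number and bars for the mean ± SD of 4 mice, on axes that differ between panels. The groups are apart for Myoz2 over Myoz1 and overlap for the other 5 pairs.

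Cacna1s, the voltage sensor in the surface membrane, opens the release channel Ryr1, the calsequestrins Casq1 and Casq2 store calcium in the sarcoplasmic reticulum, and parvalbumin takes up calcium in the cytoplasm of fast fibres. Of these 5 genes, 3 had fitted values above 0 and 2 below 0 (median 0.39), with the same counts and a median of 0.05 without control mouse 2. Casq2, the cardiac and slow-muscle calsequestrin, was at 11.5, 8.10, 11.2 and 7.80 FPKM in cKO mice and at 5.47, 4.15, 5.85 and 6.94 FPKM in control mice. All 4 cKO mice lay above all 4 control mice, with cKO mouse 4 at 7.80 and control mouse 4 at 6.94 FPKM as the nearest. The means were 9.65 ± 1.96 and 5.60 ± 1.15 FPKM (SD, n = 4 each), and the log2 fold change was 0.64 ± 0.18 (SE). Its edgeR unadjusted p was 0.0062, rank 129 of 17124 genes, with an adjusted p of 0.498. The exact permutation p on FPKM was 0.0286, the smallest it can give, and 0.405 adjusted over all genes. The log2 fold change of Casq2 stayed between 0.53 and 0.77 in every alternative and with each mouse left out, the adjusted p between 0.164 and 0.691.

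Casq1, the main calsequestrin of fast muscle, was far more abundant and had no such order. It was at 194, 105, 188 and 200.0 FPKM in cKO mice and 182, 106, 143 and 195 FPKM in control mice (log2 fold change −0.01 ± 0.23, SE). Mouse 2 was the lowest of each genotype. Casq2 stood at 5.92, 7.72, 5.96 and 3.90% of Casq1 in cKO mice and at 3.00, 3.90, 4.08 and 3.55% in control mice. The ratios overlapped through cKO mouse 4, and the mean log2 ratio differed by 0.66.

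Pvalb, encoding parvalbumin, was at 1158, 871, 1075 and 1032 FPKM in cKO mice and 1159, 2136, 1374 and 1283 FPKM in control mice. The groups did not overlap, but cKO mouse 1 at 1158 and control mouse 1 at 1159 FPKM were nearly level. The means were 1034 ± 121 and 1488 ± 441 FPKM (SD, n = 4 each). The log2 fold change was −0.76 ± 0.31 (SE), with an edgeR unadjusted p of 0.0372 and an adjusted p of 0.498, and the exact permutation p on FPKM was 0.0286, or 0.405 adjusted over all genes. The log2 fold change was −0.34 without control mouse 2, −0.21 with the transcript length trend of each mouse removed, and −0.64 ± 0.32 (SE, unadjusted p = 0.0887, edgeR) with the replicate block.

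Ryr1 had the widest range of the 35 genes. It was at 27.0, 12.0, 16.5 and 21.8 FPKM in cKO mice and at 25.8, 1.82, 7.98 and 21.5 FPKM in control mice, a 14.8-fold span. Cacna1s was at 33.5, 16.6, 21.2 and 25.7 FPKM in cKO mice and 26.6, 4.91, 13.6 and 25.0 FPKM in control mice. Both were lowest in control mouse 2 and highest in cKO mouse 1, and their groups overlapped. The log2 fold changes were 0.40 ± 0.60 and 0.39 ± 0.40 (SE), and 0.05 and 0.12 without control mouse 2. With the replicate block they were 0.80 and 0.52, with the transcript length trend of each mouse removed 0.07 and 0.14, and with both 0.15 and 0.14.

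Creatine kinase (Ckm in the cytoplasm, Ckmt2 in mitochondria) restores ATP from phosphocreatine, myoglobin (Mb) holds oxygen, glycogen phosphorylase (Pygm) frees glucose units, and Pgam2 and Eno3 are muscle forms of glycolytic enzymes. Of these 6 genes, 1 had a fitted value above 0 and 5 below 0 (median −0.29), or 3 and 3 with a median of 0.01 without control mouse 2, and none had an unadjusted p under 0.05. Ckm was at 2385, 1395, 1848 and 1941 FPKM in cKO mice and 1822, 1790.3, 1604 and 1986 FPKM in control mice. The cKO mice spanned the control mice at both ends, with a log2 fold change of −0.11 ± 0.23 (SE), or 0.03 without control mouse 2. Mb was at 937, 511, 483 and 643 FPKM in cKO mice and 716, 1485, 817 and 622 FPKM in control mice. Control mouse 2 was the highest mouse, the groups overlapped, and the log2 fold change of −0.76 ± 0.41 (SE) was −0.21 without that mouse. Of the 50-base stretches of Mb transcripts, 24.9% also occur in other annotated genes, Apol6 among them.

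Pygm, the 1 energy gene above 0, was at 314, 190.0, 216 and 297 FPKM in cKO mice and 231, 98.7, 156 and 253 FPKM in control mice, which overlap (log2 fold change 0.35 ± 0.26, SE, and 0.22 without control mouse 2). Ckmt2, Pgam2 and Eno3 had log2 fold changes of −0.47, −0.31 and −0.28. They overlapped between genotypes, control mouse 2 was the highest mouse for all 3, and without it the values were −0.12, −0.0076 and 0.03.

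Mice 1 and 2 of the cKO group and mouse 2 of the control group held most of the extreme values. Of the 35 genes, 18 had their highest FPKM in cKO mouse 1 and 18 their lowest in cKO mouse 2, while control mouse 2 was the highest for 13 genes and the lowest for 13 others. On the scale of log2 CPM (counts scaled to library size, after TMM scaling), the median deviation of the 35 genes from their mean over the 8 mice was 0.31, −0.50, −0.12 and 0.01 in cKO mice 1 to 4 and −0.0040, 0.42, −0.11 and 0.09 in control mice 1 to 4. The extremes in the cKO group were thus mice 1 and 2, which lay on opposite sides of the control mice 1, 3 and 4. Between its highest and lowest mouse, a gene differed by 1.46 to 14.8 times in FPKM (median 2.60).

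**Figure D4:**
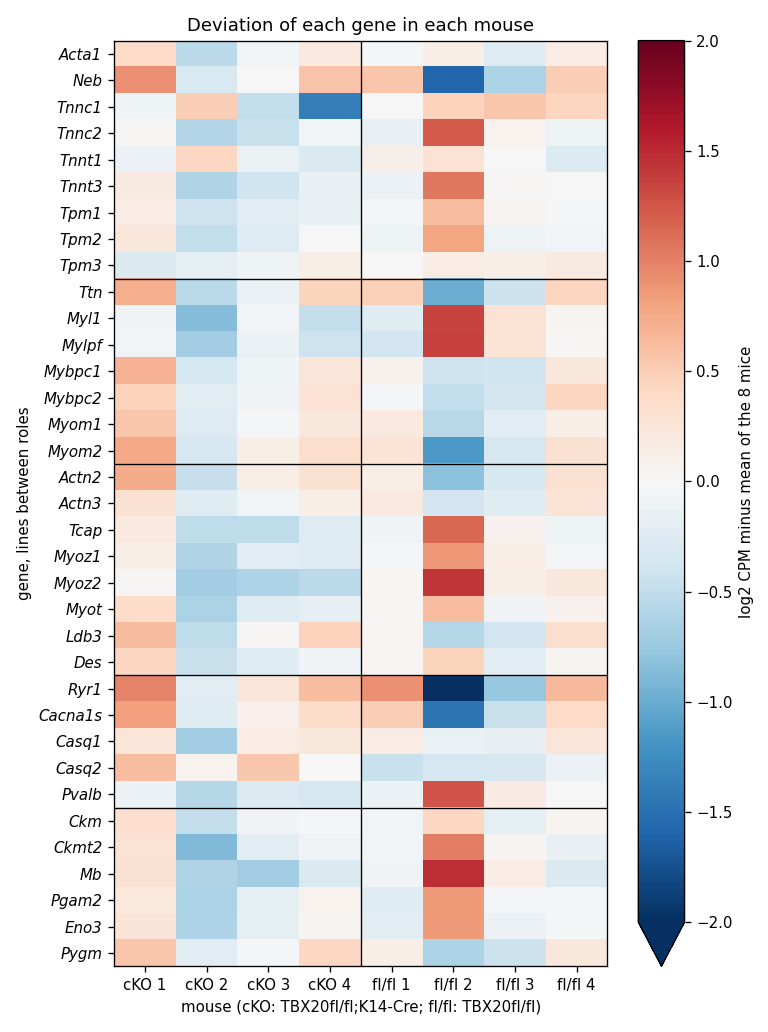
Deviation of log2 CPM from the mean of the 8 mice for each gene (rows, grouped by role with black lines between roles) in each mouse (columns), red above and blue below the mean, with the colour scale ending at 2 and −2. cKO mouse 1 is mostly red, cKO mouse 2 mostly blue, and control mouse 2 holds both the deepest red and the deepest blue, down to −2.45 for Ryr1.

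Within control mouse 2, muscle genes split by the length of their transcripts, which ranged from 644 bases for Tnnc2 to 84621 bases for Ttn. All 17 genes shorter than the median of 1556 bases were above their mean over the mice in control mouse 2 (median deviation 1.03), and 14 of the 17 longer genes were below it (median −0.55). The SD of the deviations over the 35 genes was 0.987 in control mouse 2 and 0.220 to 0.384 in the other mice. Across the 35 genes, which are not independent replicates and share 1 library, the Spearman rho of deviation with length was −0.862 in control mouse 2 and −0.871 in control mouse 3. It was 0.459 to 0.847 in the other 6 mice, control mice 1 and 4 among them. With the length trend of each mouse removed, fitted over all genes, the median deviation of control mouse 2 was 0.02 and its SD 0.532, while cKO mouse 1 then had the highest log2 CPM for 23 genes and cKO mouse 2 the lowest for 21.

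**Figure D5:**
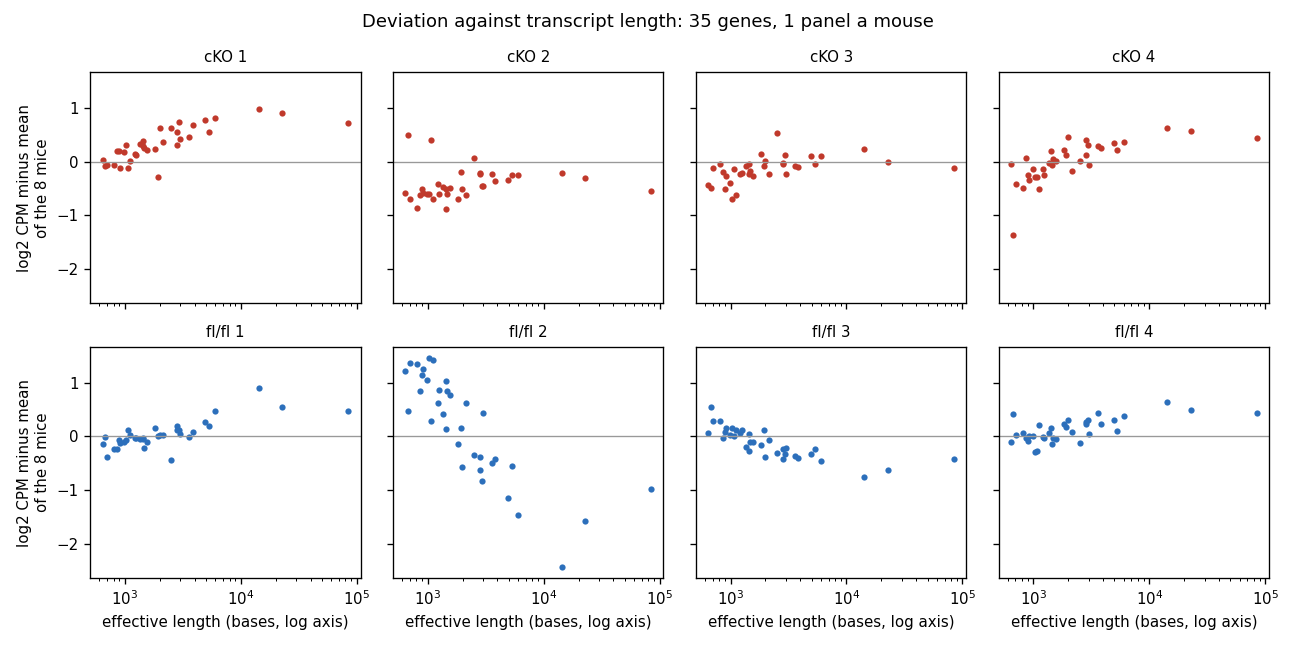
Deviation of log2 CPM from the mean of the 8 mice against effective transcript length (log axis) for the 35 genes, 1 panel a mouse, cKO mice in red and control mice in blue. Points fall steeply with length in control mouse 2, fall slightly in control mouse 3 and rise in cKO mice 1 and 4.

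The signs of the genotype differences followed the same split. Of the 17 shorter genes, 16 had a log2 fold change below 0, and of the 17 longer genes, 13 had one above 0 (Spearman rho with length 0.853 over the 35 genes, a description). Leaving out control mouse 2 moved the median of the 35 genes from −0.14 to −0.01. With the length trend removed it was 0.04, and 10 genes changed sign. The other genes kept their signs. Among them, Casq2 (2507 bases), a longer gene, was at 0.67, and Myoz2 and Pvalb (1115 and 909 bases), shorter genes, were at −0.52 and −0.21. Their signs were those of most genes on their side of the median length.

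Other genes of the muscle fibre, listed by role, also gave 0 calls at an adjusted p under 0.05 in edgeR. Of 12 fibre-type isoform genes, 8 had fitted values above 0 and 4 below 0, and 2 had an unadjusted p under 0.05, both higher in cKO mice (2.45% of all genes were called in that direction). These were Myh3 and Myh8, whose FPKM of 0.04 to 0.23 and 0.32 to 1.18 in cKO mice and 0 to 0.04 and 0.21 to 0.45 in control mice were low and overlapped. Of 34 other contraction and membrane genes, 20 were above 0 and 14 below, with 3 higher and 1 lower at an unadjusted p under 0.05 (against 2.45% and 5.91% of all genes). Xirp1, encoding an actin-binding protein of muscle cell junctions, was at 46.5, 15.8, 12.2 and 19.5 FPKM in cKO mice and 16.3, 3.67, 5.34 and 5.81 FPKM in control mice. Only control mouse 1 reached the cKO range for Xirp1, whose log2 fold change was 1.50 ± 0.52 (SE, adjusted p = 0.498). Trdn, encoding triadin of the calcium release complex, had a log2 fold change of −0.55 ± 0.22 (SE).

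Of 14 other energy genes of muscle, 7 were above 0 and 7 below, and 3 of the latter had an unadjusted p under 0.05 (against 5.91% of all genes). Cox8b and Cox7a1, muscle forms of subunits of cytochrome c oxidase, had the smallest p, with log2 fold changes of −1.02 and −0.86, and both were highest in control mouse 2 (403 and 253 FPKM), without which the values were −0.49 and −0.30. Of 13 muscle stem cell and regulatory genes, 10 were above 0 and 3 below, and none had an unadjusted p under 0.05. Myf6, a muscle regulatory factor, was at 15.1 to 26.8 FPKM and Chrna1, a subunit of the acetylcholine receptor, at 0.57 to 1.27 FPKM, with log2 fold changes of −0.49 and 0.42, or −0.18 and 0.52 without control mouse 2.

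Markers of other tissues were examined beside the muscle genes. The summed FPKM of 8 smooth muscle genes was 166 to 306 in cKO mice and 150 to 201 in control mice, highest in cKO mouse 2, where the striated muscle genes were lowest. Summed keratinocyte markers (8 genes) were at 3892 to 4947 and 3667 to 5166 FPKM, adipocyte markers (8 genes) at 3634 to 5241 and 3683 to 6078 FPKM, and dermal fibroblast markers (6 genes) at 3808 to 5594 and 3669 to 5625 FPKM, all with overlapping groups. Of these lists, the genes with an unadjusted p under 0.05 were all higher in cKO mice (2.45% of all genes were called in that direction). They were Col1a1 and Col1a2, fibrillar collagen genes of the fibroblast list, with log2 fold changes of 1.10 and 0.75, Flg, the filaggrin gene of the keratinocyte list (0.88), and Smtn of the smooth muscle list (0.75). Flg and Smtn did not overlap between genotypes, 1 of 8 genes in each list (5.19% of all genes did not overlap in that direction), while Dcn, the decorin gene of the fibroblast list, had a log2 fold change of −0.64, or −0.24 without control mouse 2. The 6 neutrophil genes all had fitted values below 0 (median log2 fold change −1.32), 4 of them with an unadjusted p under 0.05 (against 5.91% of all genes). Their summed FPKM was 106 to 291 in cKO mice and 288 to 965 in control mice, which overlap narrowly. By FPKM, 2 of the 6 did not overlap between genotypes, both lower in cKO mice (1.87% of all genes did not overlap in that direction). Of 7 salivary gland genes listed, 3 were tested, with a summed FPKM of 41.4 to 57.6 in cKO mice and 40.0 to 71.2 in control mice, most of it from Amy1. The defining salivary genes were at or near 0, with Bhlha15 at 0 to 0.10 FPKM and Smr3a at 0 to 0.09 FPKM. The part of these markers in the differences of the muscle genes was not tested.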

How the data were processed

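RNA of whole cheek skin from 8 mice was sequenced with single-end 50-base reads after selection with oligo(dT). After filtering with SOAPnuke, the authors used HISAT for alignment, and they deposited 1 table of 18901 genes on GRCm38. Each deposited expected count is an estimated count of reads per gene that the authors did not normalize, and 69.0% of those above 0 are not whole. The program that made them is not given in the sources used here. The deposited FPKM values were made by the authors on the Dr. Tom platform. Columns with TPM, scaled counts, group means and the authors' own fold changes with their p-values were not used.

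Counts were rounded, and the 17124 genes whose counts summed to 10 or more were scaled by TMM and tested with edgeR 4.0.16 (quasi-likelihood, R 4.3.3), p-values being adjusted by the Benjamini-Hochberg method over all of them. A standard error is the log2 fold change over the square root of the F statistic. Mean FPKM was also compared between genotypes with an exact permutation test, two-sided, which has 70 possible assignments. limma 3.58.1 on log2(FPKM + 1) and DESeq2 1.42.0 served as alternatives, beside other filters and scalings, the replicate number as a block, a lowess trend with transcript length (span 0.3) as an offset, and leaving out each mouse. Effective transcript lengths were derived from counts and FPKM. Summaries were made with numpy 2.4.6 and pandas 2.3.3 in Python 3.11.15. Counts of 3 or fewer were taken as at the limit of detection, which was 0.151 to 0.187 CPM and covers counting error only.

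Mice with the same replicate number deviated together (across genes, r = 0.323, 0.275, 0.176 and 0.108 for numbers 1 to 4), against −0.407 to 0.320 for the 12 other matches, 3 of which were over 0.1. The numbers were taken as pairs by the rule that every same-numbered r is over 0.1, although they are different animals. No label states that the mice were paired, so the block is an assumption read from these same data. cKO mouse 4 correlated more with control mouse 1 (r = 0.320) than with control mouse 4 (r = 0.108). The 35 genes, their roles and the related lists were chosen with earlier results of these data known. All 35 are named, and, of the lists of fibre-type, contraction, energy and regulatory genes of muscle, the myosin heavy chains and the 2 genes with the smallest p. Genes of the other tissue lists were named after their values were seen, and these lists are otherwise given as sums. Shared sequence was searched as 50-base stretches of GENCODE transcripts. Positions of Myl1, Eno3 and Pygm are given on other scaffolds in the deposited table.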

Additional observations from a re-analysis of the deposited data

Results flagged for a closer look

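In 4 of the 70 sets of 4 mice examined (35 genes in each genotype), 1 mouse lay far from the other 3 by Dixon's test at the 95% level, and chance gives about 3.5. In control mouse 2 the FPKM of Tnnc2 was 3391.29, against 1849.34 to 2092.43 in the other control mice. In the same mouse Tnnt3 was at 3836.54 FPKM, against 2406.95 to 2644.39, and Tcap at 980.19 FPKM, against 589.16 to 647.20. In cKO mouse 2 the FPKM of Casq1 was 104.99, against 187.66 to 199.97 in the other cKO mice. The first 3 of these genes have short transcripts (644, 986 and 899 bases) and lay in control mouse 2, where levels of the muscle genes fell with transcript length, as they also did in control mouse 3. The part of transcript length in these 4 values was not tested.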

How the results depend on the processing

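No muscle gene passed an adjusted p of 0.05 in any alternative. Over all genes DESeq2 called 10 and every other setting 0. With the replicate number as a block (pairing), 0 of the 35 genes passed in edgeR (lowest adjusted p = 0.405), the median log2 fold change was −0.16, and 4 genes had an unadjusted p under 0.05, Myom2 and Neb taking the place of Myl1 and Pvalb. The block changed no call at an adjusted p. The number of genes with an unadjusted p under 0.05, 4 as reported, was 5 in DESeq2, 3 with filterByExpr or the length offset, 2 in each of the 3 limma fits and 2 to 6 with 1 mouse left out (2 without cKO mouse 3 or cKO mouse 4). It was 6 with the block and the length trend together, where Acta1, Actn2, Ldb3, Casq2 and Pygm were higher in cKO mice and Myoz2 lower. Casq2 and Myoz2 were among these genes in every setting. The share of all genes with an unadjusted p under 0.05 was counted for edgeR as reported (8.36%) and with the block (10.1%). It was not counted in the other settings, so their counts have no background beside them. The median log2 fold change of the 35 genes, −0.14, lay between −0.25 and −0.0076 with 1 mouse left out. It turned to 0.04 with the length trend as an offset, 0.0051 with the block and the length trend together (chosen after seeing the data), 0.0070 in limma on log2(FPKM + 1) with or without the filter on FPKM, and 0.0069 on log2(FPKM + 0.1). The median of all genes moved from 0.03 to 0.12 and 0.18 in limma with pseudocounts of 1 and 0.1, and to 0.058 with a pseudocount of 1 and no filter, so these values are relative to different centres.

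Signs turned for 10 genes with the length trend as an offset, to −0.19 for Neb, 0.040 for Tnnc2, 0.30 for Tnnt1, 0.035 for Tpm1, −1.07 for Ttn, −0.071 for Myom1, 0.14 for Casq1, 0.20 for Ckm, 0.22 for Pgam2 and 0.047 for Eno3. With the block and the length trend together the same 10 stood at −0.21 for Neb, 0.0051 for Tnnc2, 0.31 for Tnnt1, 0.023 for Tpm1, −0.80 for Ttn, −0.087 for Myom1, 0.12 for Casq1, 0.18 for Ckm, 0.18 for Pgam2 and 0.022 for Eno3. In limma with a pseudocount of 1, with or without the filter, Tnnt1 was at 0.060, Des at 0.0070, Casq1 at 0.12 and Ckm at 0.050, and with 0.1 Tnnt1 was at 0.067, Des at 0.0069, Casq1 at 0.12 and Ckm at 0.050. Leaving out 1 mouse moved Acta1 from −0.10 to 0.18, Tnnt1 from −0.23 to 0.032, Ttn from −0.0093 to 0.42, Actn3 from −0.048 to 0.17, Casq1 from −0.084 to 0.17, Ckm from −0.25 to 0.029 and Eno3 from −0.41 to 0.030. The cause of these turns was not tested. Depth limits Tnnc1 most, the lowest of the 35 genes at a mean of 1.04 FPKM.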
